A study of Mus musculus with 8 samples.

Results

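Activator protein 1 (AP-1) is a family of basic leucine zipper (bZIP) transcription factors, and the 9 genes described here encode 8 of its Fos, Jun and Batf proteins and the stress-induced relative Atf3. They are Fos, Fosb, Fosl1, Fosl2, Jun, Junb, Jund, Batf3 and Atf3, taken by name from a table of 33899 genes in which 14455 could be matched to a name. All 9 were found in all 8 libraries. The RNA came from mouse Th1 cells, the interferon gamma-producing helper T cells. CD4 T cells of C57BL/6 mice had been stimulated with antibodies to CD3 and CD28, and polarized by IL-12 (2 ng/ml) while IL-4 was blocked by an antibody (5 µg/ml). Each of 4 groups had 2 libraries. Cells transduced with a short hairpin RNA against Pcbp1 were set against cells transduced with a scrambled hairpin, both sequenced as total RNA depleted of ribosomal RNA. Cells treated with CPX (ciclopirox olamine), which chelates intracellular iron, were set against cells given DMSO, both sequenced as polyA RNA; the labels state no dose or duration for CPX. The question was how the transcriptome changes when the RNA-binding protein and iron chaperone PCBP1 is reduced and when iron is withdrawn. The labels give neither the number of mice behind a library nor whether replicates were separate cultures, so p-values measure only the spread between these libraries, which may be technical.

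AP-1 binds DNA as pairs of proteins held together by leucine zippers. Jun proteins can pair with themselves or with Fos proteins, whereas Fos proteins need a Jun partner. T cell receptor and CD28 signals raise Fos through serum response factor and the ERK pathway, and raise c-Jun activity through the JNK kinases. The pairs then bind with NFAT at cytokine genes such as Il2. JunB and JunD can oppose c-Jun at some genes, Fra-1 (Fosl1) and Fra-2 (Fosl2) lack the strong activation domains of c-Fos and FosB, BATF3 is a small bZIP protein that pairs with Jun proteins, and ATF3 is a CREB family member induced by many stresses.

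Promoters are shown for those of the 9 genes in which a bZIP-type element was found, whether or not the gene was called. RefSeq windows (build GRCm38.p6) of 300 bases, from 250 before the start of the gene to 50 after it, were held for 8 of the 9 genes. The search covered 5 motifs on both strands of these windows and of 27025 promoters, 1 per gene, namely the AP-1 site TGANTCA (in 7.93% of all promoters), the cyclic AMP response element TGACGTCA (1.88%), the C/EBP-ATF composite element TGATGNAAN (4.04%), the CArG box bound by serum response factor (1.57%) and the kappa B site GGGANTTCC (1.69%). Of these only the composite element was found, in Atf3. The 3 looser elements were added after the windows had been read, namely TGACNTCA (8.97% of all promoters, and it takes in TGACGTCA), TGACGNAA (1.64%) and the core TGACG (21.0%), which the others can contain. TGACNTCA was in Jun, TGACGNAA in Fosb and Atf3, and TGACG in Fos, Fosb, Junb and Atf3. No motif was found in the windows of Fosl2, which rose with CPX, Jund and Batf3, and no window was held for Fosl1. The windows lie at chr7:19309996-19310295 (Fosb, minus strand), chr12:85473640-85473939 (Fos, plus strand), chr4:95052173-95052472 (Jun, minus strand), chr1:191183284-191183583 (Atf3, minus strand) and chr8:84978699-84978998 (Junb, minus strand). They read 5′ to 3′ in the direction of the gene, with every matched element in capitals.
Fosb: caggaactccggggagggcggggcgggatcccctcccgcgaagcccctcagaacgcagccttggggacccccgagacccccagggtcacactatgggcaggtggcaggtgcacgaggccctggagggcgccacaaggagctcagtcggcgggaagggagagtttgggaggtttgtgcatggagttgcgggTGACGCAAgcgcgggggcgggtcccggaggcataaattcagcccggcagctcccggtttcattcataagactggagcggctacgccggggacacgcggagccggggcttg
Fos: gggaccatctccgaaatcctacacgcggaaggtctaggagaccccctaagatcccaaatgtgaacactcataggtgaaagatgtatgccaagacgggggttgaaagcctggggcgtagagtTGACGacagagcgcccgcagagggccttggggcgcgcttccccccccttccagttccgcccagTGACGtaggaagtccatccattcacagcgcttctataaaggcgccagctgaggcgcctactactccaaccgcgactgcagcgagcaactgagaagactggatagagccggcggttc
Jun: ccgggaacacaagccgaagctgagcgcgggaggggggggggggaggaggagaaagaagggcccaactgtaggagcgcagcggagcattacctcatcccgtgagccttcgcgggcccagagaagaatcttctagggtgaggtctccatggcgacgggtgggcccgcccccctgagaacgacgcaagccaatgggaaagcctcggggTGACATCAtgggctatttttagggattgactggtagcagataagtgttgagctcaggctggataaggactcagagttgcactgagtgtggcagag
Atf3: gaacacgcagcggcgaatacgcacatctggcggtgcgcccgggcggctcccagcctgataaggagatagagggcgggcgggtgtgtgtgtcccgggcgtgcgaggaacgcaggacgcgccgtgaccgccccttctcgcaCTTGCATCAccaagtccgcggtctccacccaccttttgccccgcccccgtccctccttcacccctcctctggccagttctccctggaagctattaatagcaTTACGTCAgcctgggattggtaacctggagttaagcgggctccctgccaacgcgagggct
Junb: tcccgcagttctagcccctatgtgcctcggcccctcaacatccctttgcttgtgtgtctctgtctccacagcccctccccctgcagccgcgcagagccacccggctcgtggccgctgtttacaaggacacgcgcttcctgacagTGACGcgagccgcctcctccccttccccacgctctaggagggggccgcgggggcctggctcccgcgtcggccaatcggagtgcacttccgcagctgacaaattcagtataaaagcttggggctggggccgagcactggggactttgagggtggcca
In Fosb the element TGACGCAA began 60 bases before the start. In Jun, TGACATCA began 45 bases before it. In Atf3, CTTGCATCA, the composite element read from the opposite strand, began 111 bases before the start, and TTACGTCA, TGACGNAA read from the opposite strand, began 10 bases before it. A match describes letters only, and no binding was measured here.

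Levels are given as RPM, a gene's value divided by the library's total and multiplied by 1e+06. Totals ran from 14174293 to 15518303 gene-assigned reads in the knockdown experiment, and in the CPX and DMSO libraries from 19193784 to 19662145 units of the authors' rescaled values. Pcbp1 stood at 15.1 and 16.1 RPM with the Pcbp1 hairpin, against 44.0 and 51.7 RPM with the scrambled hairpin (log2 fold change -1.73 with an SE of 0.12; adjusted p = 3.18e-05 by edgeR's quasi-likelihood test). Pcbp1 was also lower with CPX, at 238 and 199 RPM, against 506 and 537.5 RPM with DMSO (log2 -1.26 with an SE of 0.20; limma, adjusted p = 0.00613). The T cell receptor genes Cd3d, Cd3e, Cd3g and Trac and the co-receptor Cd4 were detected in every library. The CD8 genes followed the replicate number: Cd8a had 67.2 and 6.92 RPM in the Pcbp1 hairpin libraries, against 63.8 and 6.49 RPM in the scrambled ones. Marker values were held only for lines that reached 10 in at least 1 library and matched 1 gene. Emr1, Flt3, Cd79b, Col1a1 and Pdgfra reached it only in CPX libraries, so sums over markers with values lean toward CPX. With CPX, transcripts of myeloid and dendritic lists were higher, summing to 53.2 and 31.0 RPM with CPX against 1.63 and 1.69 RPM with DMSO for the 2 of 7 macrophage markers with values (mostly Itgam), and to 22.9 and 26.4 RPM with CPX against 2.95 and 3.27 RPM with DMSO for 4 of 6 dendritic markers (mostly Itgax). In the authors' deposited table the macrophage gene Lyz2 had a mean of 0.260 normalized counts in that experiment and the dendritic gene Clec9a was at 0.0. The macrophage gene Csf1r had a mean of 1.77 there and a log2 fold change of 0.18 with an SE of 1.25. Other lists were also higher with CPX. Eomes, the 1 NK marker of 4 with values, had 14.5 and 6.08 RPM with CPX, against 1.78 and 2.51 RPM with DMSO. The 2 of 5 fibroblast markers summed to 4.90 and 3.22 RPM with CPX, against 0.203 and 0.460 RPM with DMSO, and the 2 of 5 B cell markers to 2.29 and 2.70 RPM with CPX, against 0.661 and 0.511 RPM with DMSO. No neutrophil marker of 4 had a value under the rule above. The highest of their means in the authors' deposited table for CPX was 2.45 normalized counts, for Ly6g. The part of these cells in the results was not tested. In bulk RNA, fewer cells of a type and less RNA per cell cannot be told apart.

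CPX raised 5 of the 9 genes: Fosb, Fosl2, Fos, Jun and Atf3. Fosl1, Junb, Jund and Batf3 did not pass, and none of the 9 fell. Over all 11466 genes tested, 44.7% were called, 19.9% up and 24.8% down, at a Benjamini-Hochberg adjusted p under 0.05, and the median log2 fold change was -0.12, against 2.45 over the 9 genes. For 6 of the 9 the CPX libraries did not overlap the DMSO libraries, as for 76.3% of all genes, and in each of the 6 the CPX libraries were higher. Batf3 is the 1 of these 6 that was not called. The log2 fold changes for CPX are on the log2(RPM + 0.5) scale.

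Fosb, the gene for FosB, moved most. It had 448 and 469.9 RPM in the CPX libraries, against 7.42 and 7.62 RPM in the DMSO libraries. The groups lay far apart and each pair of replicates nearly coincided. The log2 fold change was 5.84 (SE 0.22, limma, adjusted p = 0.00241), a 57.2-fold rise.

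Fosl2, the gene for Fra-2, had 544.4 and 584.3 RPM with CPX, against 75.0 and 95.3 RPM with DMSO. The rise was 6.64-fold (log2 2.73, SE 0.21, limma, adjusted p = 0.00241). Jun, the gene for c-Jun, had 329 and 307 RPM with CPX, against 61.7 and 54.3 RPM with DMSO. It rose 5.45-fold (log2 2.45, SE 0.20, limma, adjusted p = 0.00241). Fos, the gene for c-Fos, had 70.7 and 51.8 RPM with CPX, against 8.59 and 11.6 RPM with DMSO, a 5.81-fold rise (log2 2.54, SE 0.31, limma, adjusted p = 0.00367). For all 3 genes both CPX libraries were above both DMSO libraries.

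Atf3, the stress-induced CREB family member, differed more between its DMSO replicates than any other of the 9 genes. It had 299 and 109.5 RPM with CPX, against 55.7 and 7.98 RPM with DMSO. The groups did not overlap, but replicate 1 was 2.73-fold above replicate 2 with CPX and 6.99-fold above it with DMSO. The log2 fold change was 3.06 (SE 0.95, limma, adjusted p = 0.0458, 95% interval 0.70 to 5.42). With 1 library left out, its group is a single library that is assumed to vary like the others. The call was then lost without CPX replicate 1 (adjusted p = 0.262), CPX replicate 2 (0.119) or DMSO replicate 2 (0.0928, log2 1.69), and held without DMSO replicate 1 (0.0145, log2 4.42). It was also lost with no filter on low values (0.0808) or no trend of the spread (0.0558). With the replicate number as a block the call held (SE 0.36, limma, adjusted p = 1.20e-04), though no label says what the numbers mark. Fosl1 and Jun also had more in replicate 1 than in replicate 2 of both groups, by at most 1.88-fold.

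**Figure D1:**
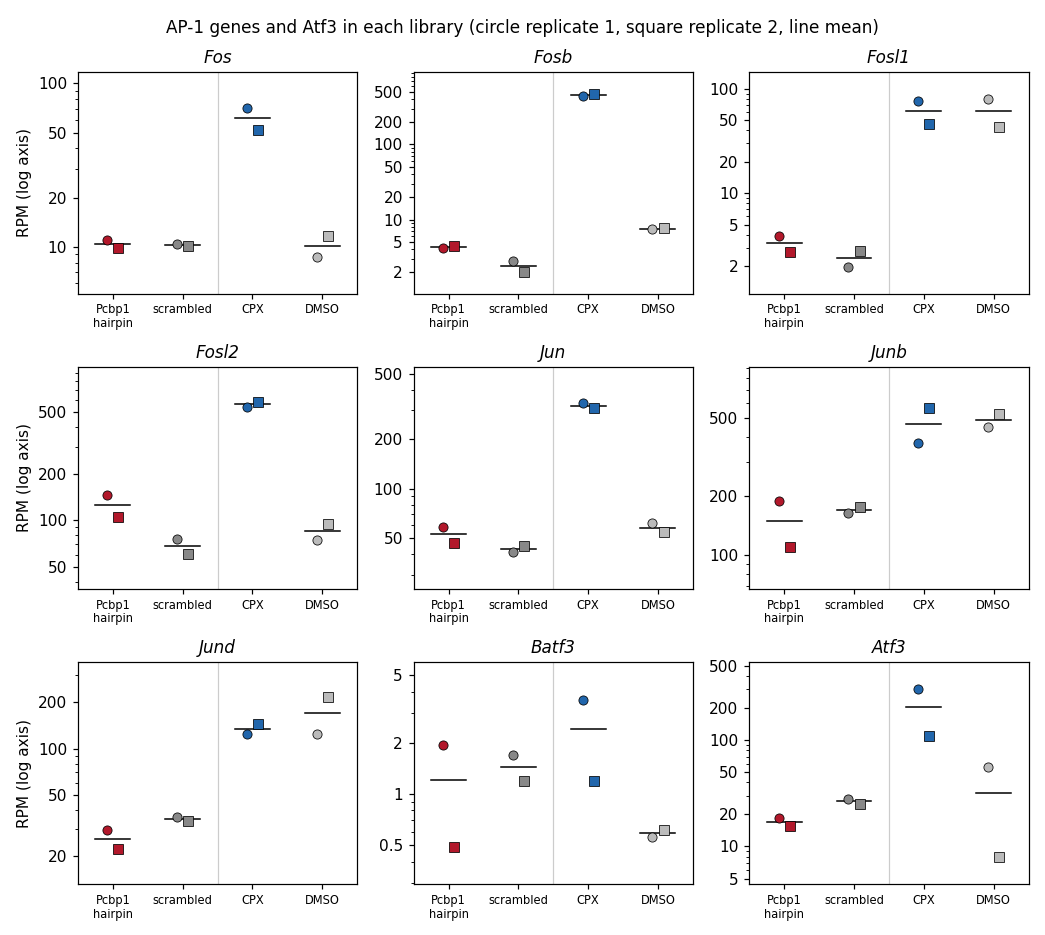
RPM of each gene (log axes, each panel its own range) in the Pcbp1 hairpin, scrambled, CPX and DMSO libraries, with circles for replicate 1, squares for replicate 2 and a line at the mean of 2. Fosb, Fosl2, Jun and Fos stand well above DMSO in both CPX libraries, and the Atf3 replicates spread from 7.98 to 55.7 RPM in DMSO. The experiments differ in RNA selection and are parted by a grey line.

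Junb, Jund and Fosl1 had CPX and DMSO libraries that overlapped. Junb had 374.7 and 561.4 RPM with CPX, against 452 and 528 RPM with DMSO (log2 -0.09, 95% interval -0.73 to 0.55, limma, adjusted p = 0.794). Scaled by TMM, its value was 0.04. Jund had 124.5 and 144 RPM with CPX, against 124.5 and 216 RPM with DMSO (log2 -0.29, interval -1.06 to 0.48, adjusted p = 0.473). Fosl1 had 76.3 and 45.9 RPM with CPX, against 80.3 and 42.8 RPM with DMSO (log2 0.01, interval -1.0 to 1.03, adjusted p = 0.983).

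Batf3, best known as the factor that dendritic cells of the conventional type 1 lineage need, was near the limit of detection. It had 3.59 and 1.195 RPM with CPX, against 0.560 and 0.614 RPM with DMSO. It passed the filter (at least 1 RPM in 2 of 4 libraries) only through the CPX libraries. The log2 fold change of 1.28 did not pass (SE 0.46, limma, adjusted p = 0.0700). The value itself was unstable, at 0.64 without CPX replicate 1, 1.91 without CPX replicate 2, 0.71 with a pseudocount of 2, 1.67 with a pseudocount of 0.1 and 0.64 after quantile normalization. The adjusted p was 0.0474 without CPX replicate 1 and 0.0120 without CPX replicate 2, where a single CPX library was set against DMSO libraries of 11 and 12 units, which alone gave the spread within groups. The authors' deposited table gave an adjusted p of 0.0131 for Batf3. The sum of the dendritic markers given above, mostly Itgax, moved the same way. Among these markers Xcr1 had 0.104 and 0.364 RPM with CPX, against 0.0 and 0.0512 RPM with DMSO. Flt3 had 0.521 and 0.104 RPM with CPX, against 0.102 and 0.154 RPM with DMSO. The part of dendritic cells in the Batf3 value was not tested.

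After the Pcbp1 hairpin, Fosl2 and Fosb were called up and Atf3 and Jund down, while Fos, Fosl1, Jun, Junb and Batf3 did not pass. These 4 of 9 calls compare with 56.0% of all 11575 genes, 29.3% called up and 26.7% called down, so that the share of calls among the 9 genes was near the background. The median log2 fold change was -0.08 over the 9 genes and 0.00 over all genes. The 2 groups did not overlap for 5 of the 9 genes and for 78.5% of all genes.

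Fosl2 had 145.6 and 105.7 RPM in the Pcbp1 hairpin libraries, against 75.8 and 60.5 RPM in the scrambled libraries. Both hairpin libraries lay above both scrambled ones, and the rise was 1.71-fold (log2 0.78 with an SE of 0.15; edgeR, adjusted p = 0.00398). Fosl2 has the longest transcript of the 9 genes, at 6537 bases. Relative to a smooth fit of all fold changes on transcript length and GC content, its log2 value was 0.13. Fosb had 4.19 and 4.48 RPM with the Pcbp1 hairpin, against 2.82 and 2.02 RPM with the scrambled hairpin (log2 0.73, SE 0.24, edgeR, adjusted p = 0.0346). These are 65 and 64 reads against 40 and 29. The Fosb call was lost with DESeq2 (adjusted p = 0.180), without Pcbp1 hairpin replicate 1 (0.0704) or 2 (0.137) and without scrambled replicate 2 (0.183), and relative to length and GC content the value was 0.30. The authors' deposited table gave Fosb an adjusted p of 0.203.

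Atf3 had 18.6 and 15.7 RPM in the Pcbp1 hairpin libraries, against 28.1 and 25 RPM in the scrambled libraries, so the groups did not overlap. It fell 1.67-fold (log2 -0.74, SE 0.12, edgeR, adjusted p = 0.00157). The call held whichever library was left out (adjusted p 0.00170 to 0.00641). Jund had 29.6 and 22.2 RPM with the Pcbp1 hairpin, against 36.0 and 34.1 RPM with the scrambled hairpin. It fell 1.46-fold (log2 -0.54, SE 0.14, edgeR, adjusted p = 0.0118). Relative to length and GC content the values were -0.70 for Atf3 and -0.72 for Jund.

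Junb and Batf3 differed between the Pcbp1 hairpin replicates. Junb had 189.5 and 109.6 RPM with the Pcbp1 hairpin, against 165 and 176 RPM with the scrambled hairpin (log2 -0.30, 95% interval -0.78 to 0.19, edgeR, adjusted p = 0.260). Without Pcbp1 hairpin replicate 1 the value was -0.73 (adjusted p = 1.23e-04), and without replicate 2 it was 0.02. Each of these sets a single hairpin library against the scrambled pair, whose closeness alone gives the spread between replicates. Batf3 had 30 and 7 reads with the Pcbp1 hairpin, against 24 and 17 with the scrambled hairpin (log2 -0.33, adjusted p = 0.636). Without Pcbp1 hairpin replicate 1 it was -1.63 (adjusted p = 0.0371), which rests on 1 hairpin library of 7 reads, and without replicate 2 it was 0.29. The CD8 genes, also higher in replicate 1 of both groups, moved with this Batf3 difference, and their part in it was not tested.

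Fos had 11.0 and 9.86 RPM with the Pcbp1 hairpin, against 10.4 and 10.1 RPM with the scrambled hairpin. This log2 value of -0.08 (95% interval -0.40 to 0.24, edgeR, adjusted p = 0.650) turned to 0.02 with limma on unscaled RPM. Jun had 58.4 and 47.0 RPM with the Pcbp1 hairpin, against 40.99 and 44.7 RPM in the scrambled libraries. Its libraries did not overlap, but its log2 value of 0.19 did not pass (interval -0.08 to 0.46, edgeR, adjusted p = 0.193; 0.0486 without Pcbp1 hairpin replicate 2), and relative to length and GC content it was -0.13. Fosl1 had 61 and 39 reads with the Pcbp1 hairpin, against 28 and 40 with the scrambled hairpin (log2 0.38, interval -0.30 to 1.05, adjusted p = 0.300).

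**Figure D2:**
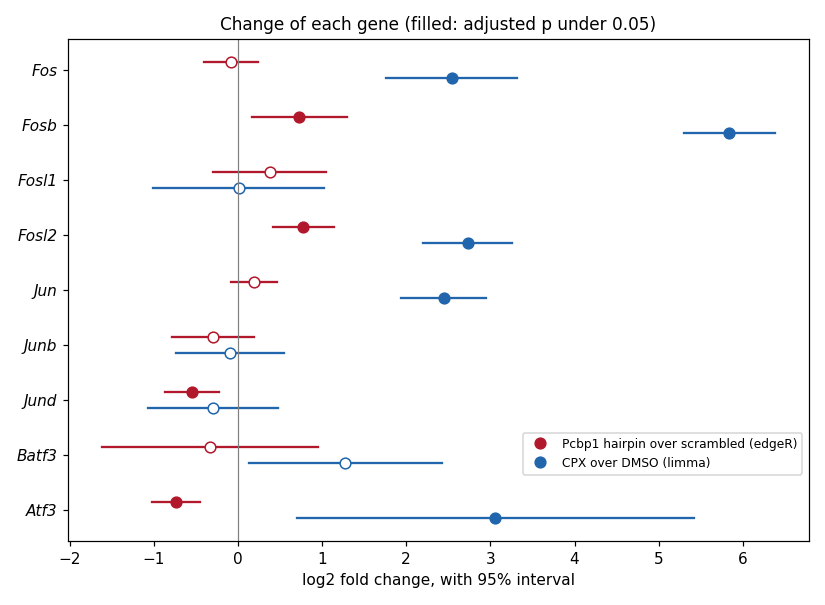
Log2 fold change of each gene with its 95% interval, for the Pcbp1 hairpin over scrambled (red, edgeR) and CPX over DMSO (blue, limma). Filled points passed an adjusted p of 0.05: 4 genes with the hairpin and 5 with CPX. Atf3 is called on opposite sides of 0, at -0.74 with the hairpin and 3.06 with CPX.

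The effects of the hairpin and of CPX were compared in 1 limma fit of all 8 libraries, as the knockdown effect minus the CPX effect. For 5 of the 9 genes this difference was called, all negative. Over all 10430 genes 51.3% were called, 35.2% positive and 16.1% negative, and with TMM scaling the split was 2851 positive and 2444 negative genes against 3671 and 1675 with library totals. The median over all genes was 0.40 with library totals and 0.04 with TMM scaling, and the same count of 5 negative genes was called with TMM scaling. The log2 differences were -5.10 for Fosb (SE 0.27, limma, adjusted p = 6.12e-05), -2.51 for Fos (adjusted p = 7.78e-04), -2.16 for Jun (2.98e-04) and -1.86 for Fosl2 (0.00182). Atf3 differed by -3.67 (adjusted p = 0.0334), a call lost without Pcbp1 hairpin replicate 1 (0.0770) or 2 (0.0928), scrambled replicate 1 (0.0913) or 2 (0.0815) or CPX replicate 1 (0.0788). The Atf3 difference was -5.04 without DMSO replicate 1 and -2.31 without DMSO replicate 2. With the replicate number as a block within each experiment its call held (limma, adjusted p = 0.00278). For Fosl1, Junb, Jund and Batf3 the differences of 0.39, -0.15, -0.15 and -1.59 did not pass (adjusted p = 0.569, 0.777, 0.761 and 0.115). The Batf3 difference ran from -2.24 to -0.94 with 1 library left out, and its adjusted p was 0.0472 without Pcbp1 hairpin replicate 1 and 0.0272 without CPX replicate 2. Experiment and RNA selection cannot be told apart in this contrast, since RNA selection was the same in both groups of an experiment and differed between experiments. The controls remove only what the groups of an experiment share.

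Levels were compared between genes as RPM per kb of the longest coding transcript (GENCODE M21). Junb was the most abundant of the 9 mRNAs in every group, with means of 82.7 (Pcbp1 hairpin), 94.1 (scrambled), 259 (CPX) and 271 (DMSO) RPM per kb, and its libraries overlapped those of no other gene. With the Pcbp1 hairpin the order below it was Fosl2 (19.2), Jun (16.5), Jund (15.5), Atf3 (8.64), Fos (4.95), Fosl1 (1.79), Batf3 (1.51) and Fosb (1.14). With the scrambled hairpin it was Jund (21.0), Jun (13.4), Atf3 (13.4), Fosl2 (10.4), Fos (4.86), Batf3 (1.80), Fosl1 (1.28) and Fosb (0.641). Jun and Atf3 could not be parted in the scrambled libraries, nor Fosl2, Jun and Jund from each other with the Pcbp1 hairpin, and Batf3 and Fosl1 overlapped in both, as did Batf3 and Fosb with the Pcbp1 hairpin. With CPX, Fosb (121) came directly below Junb, followed by Atf3 (103), Jun (99.7), Fosl2 (86.3), Jund (80.5), Fosl1 (32.8), Fos (29.0) and Batf3 (2.99). With DMSO the order was Jund (102), Fosl1 (33.0), Jun (18.2), Atf3 (16.1), Fosl2 (13.0), Fos (4.79), Fosb (1.99) and Batf3 (0.732). With CPX the Atf3 libraries (151 and 55.2 RPM per kb) spanned those of Fosb, Jun, Fosl2 and Jund, and Fosl2 overlapped Jund and Fosl1 overlapped Fos. With DMSO the Atf3 libraries (28.1 and 4.02 RPM per kb) overlapped those of Fosl1, Jun, Fosl2 and Fos.

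The makeup of the Fos and Jun mRNA pool differed accordingly. Of the summed RPM per kb of the 7 Fos and Jun genes, the 4 Fos genes made 17.9% and 20.95% with the Pcbp1 hairpin, against 12.7% and 10.9% with the scrambled hairpin. They made 41.8% and 34.8% with CPX, against 15.0% and 9.32% with DMSO. Fosb alone held 17.9% and 16.4% of the pool with CPX, against 0.49% and 0.42% with DMSO. The share of Junb was 31.3% and 41.1% with CPX, against 61.8% and 60.4% with DMSO. The sum over the 7 genes was 661 and 755.6 RPM per kb with CPX, against 404 and 484 with DMSO. These shares are descriptions of mRNA, and protein was not measured.

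**Figure D3:**
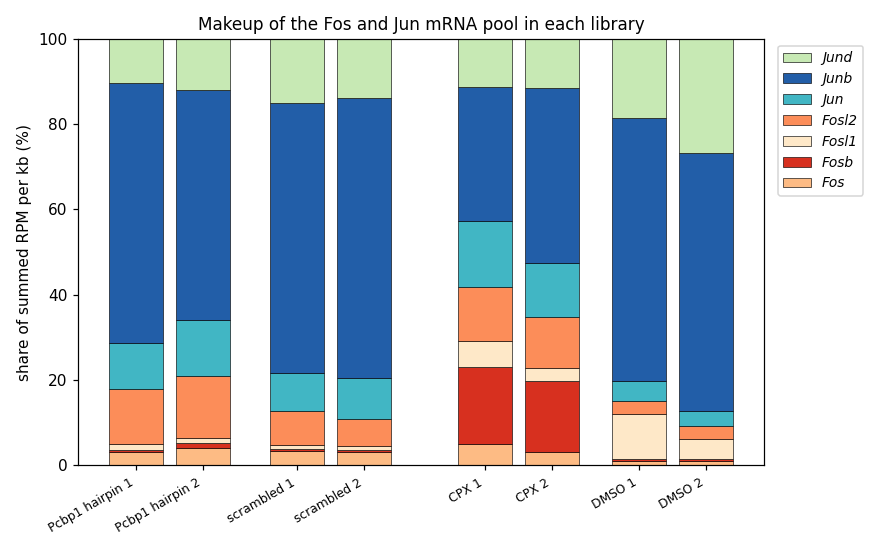
Share of each Fos and Jun gene (percent) in the summed RPM per kb of the 7 genes, as 1 stacked bar per library for the Pcbp1 hairpin, scrambled, CPX and DMSO groups. Junb (dark blue) is the largest part in every library, and Fosb (red) takes 17.9% and 16.4% with CPX against 0.36% to 1.06% in the other libraries.

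Over the 8 libraries, each centred within its experiment, Fosb, Fos, Jun and Fosl2 followed each other closely. The Pearson correlations on the log2 scale were 0.99 for Fosb with Jun, 0.98 for Fosb with Fos, 0.97 for Fosb with Fosl2 and 0.94 for Fos with Fosl2. Junb with Fosb stood at -0.16 and Jund with Fosb at -0.41. Atf3 correlated at 0.81 with Jun and 0.41 with Fosl1. Most of the spread behind these values is the single step between CPX and DMSO, so they describe that step. Among 8112 genes, those most like Fosb were Skil (0.997), a repressor of TGF-beta signalling, and Smg1 (0.996), a kinase of nonsense-mediated decay. Those most like Fos were Tecpr1 (0.998) and Nlrc5 (0.996), those most like Jun Btbd7 (0.998) and Smg1 (0.996), and those most like Fosl2 Adcy3 (0.997) and Fgd3 (0.996). For Atf3 they were Lztfl1 (0.983) and Pdcd1lg2 (0.970), for Batf3 Sp100 (0.960) and Xdh (0.949), for Junb Pex16 (0.940) and Wrn (0.929), for Jund Snx25 (0.956) and Ptprcap (0.953), and for Fosl1 Metap1d (0.909) and Fam169b (0.886).

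The 3′ untranslated regions of the 9 genes differed in AU-rich pentamers, ATTTA, which are known to shorten the life of early response mRNAs. Fos held 4 in 818 bases (4.89 per kb, at or above 92.0% of 19795 genes), Junb 4.10 per kb, Jun 3.24 and Atf3 2.52, against a median of 1.35 per kb. Fosb, with the largest rise after CPX, held 1 in 2148 bases (0.466 per kb), and Batf3 none in 313 bases. The longer element TTATTTATT, present in 7.33% of genes, occurred in Fos and Fosl2 and in no other of the 9. Genes that rose with CPX thus ran from 0.466 to 4.89 pentamers per kb.

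Lists of related genes are given beside all genes tested, of which 29.3% were called up and 26.7% down with the hairpin and 19.9% up and 24.8% down with CPX. The list values were not set relative to transcript length and GC content, which took the hairpin value of Fosl2 from 0.78 to 0.13. Of 37 genes on a list of AP-1 partners and relatives, 14 rose and 4 fell among 32 tested with CPX (median 0.71, against -0.12 over all genes). With the Pcbp1 hairpin 11 rose and 5 fell among 29 tested (median 0.16, against 0.00), a share of calls near the 56.0% of all genes. With CPX the smallest p-values belonged to Crem, a cyclic AMP response modulator (182 and 194 RPM with CPX, against 14.4 and 15.3 RPM with DMSO; log2 3.62, limma, adjusted p = 0.00241), Ddit3, the stress factor CHOP (4.17), and Maff, a small Maf protein (3.10). With the hairpin they belonged to Nfe2l1 (1.03), Mafg (1.15) and Creb3l2 (1.71). Batf, which pairs with Jun proteins and IRF4 in T cells and was picked out after its values were seen, fell in both. It had 36.9 and 36.2 RPM with the Pcbp1 hairpin, against 75.4 and 65.2 RPM with the scrambled hairpin (log2 -1.05, edgeR, adjusted p = 7.82e-05), and 13.9 and 18.7 RPM with CPX, against 139 and 142 RPM with DMSO (log2 -3.08, limma, adjusted p = 0.00241).

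**Figure D4:**
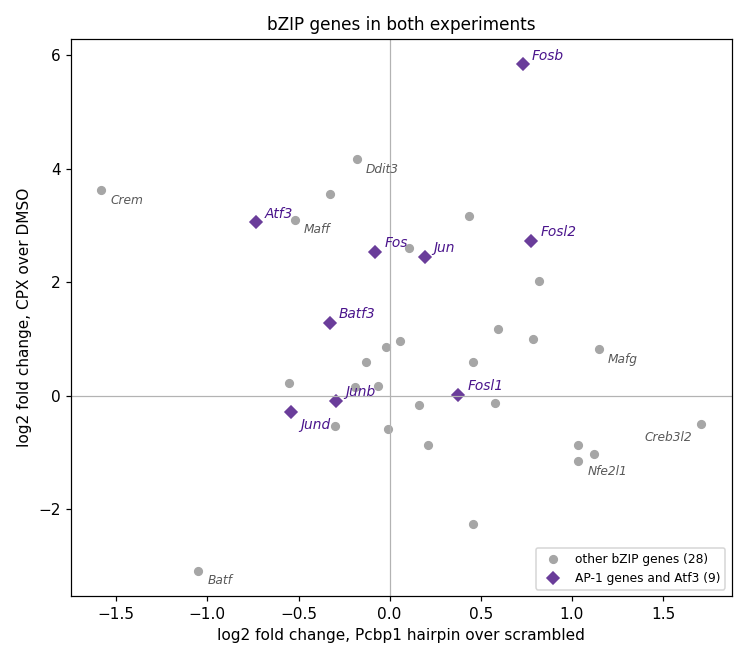
Log2 fold change with the Pcbp1 hairpin (x axis) and with CPX (y axis) for the 9 genes (purple diamonds) and 28 other bZIP genes tested in both experiments (grey circles). Fosb lies highest at 5.84, Fosl2 is in the upper right, Atf3 and Crem are in the upper left, and Batf is lowest at -3.08.

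Among the kinases upstream of AP-1, of 31 genes of the MAP kinase cascades 29 were tested. With the hairpin 15 rose and 4 fell (median 0.38), led by the kinase genes Map3k11 (log2 1.47), Map3k1 (1.2) and Map2k3 (1.18). With CPX 4 rose and 8 fell (median -0.41, against -0.12 over all genes), a share of calls near the 44.7% of all genes. Araf (-1.78) and Map4k1 (-1.98) fell, and Map3k1 (2.20) and Map3k11 (0.72) rose. Of 12 genes for serum response factor, its ternary complex partners and their kinases, 6 rose and 1 fell with the hairpin, among them Elk3 (1.56), Elk4 (1.37) and Srf (1.28). With CPX 2 rose, Elk4 (1.45) and Rps6ka5 (1.54), and 1 fell, Mkl2 (-1.47). A list drawn up for the turnover of Fos and Jun proteins also held Sel1l, an adaptor of degradation at the endoplasmic reticulum that does not belong to that process. With the hairpin 8 of its 15 tested genes rose, among them Gsk3b (0.89) and Sel1l (0.66), and 2 fell. With CPX 3 rose, among them Trib1 (2.14) and Fbxw7 (1.35), and 3 fell.

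The integrated stress response, through which ATF4 induces Atf3, was represented by 26 genes, 3 of which (Atf4, Ddit3 and Cebpg) are also on the bZIP list. With CPX 11 rose and 1 fell (median 0.57), led by Ddit3 (4.17), Trib3 (4.53) and Vldlr (4.18). Trib3 had 151 and 229 RPM with CPX, against 13.5 and 4.14 RPM with DMSO. Atf4 mRNA itself stood at 382 and 645 RPM with CPX, against 481 and 378 RPM with DMSO (log2 0.22, limma, adjusted p = 0.585). With the Pcbp1 hairpin 7 of 24 rose and 8 fell, Slc7a5 at 1.12, Eif2s1 at -0.52 and Aldh18a1 at 0.55. Atf4 was among those that fell, at 424 and 327 RPM with the Pcbp1 hairpin, against 546 and 477 RPM with the scrambled hairpin (log2 -0.55, edgeR, adjusted p = 0.00627). Trib3 (-1.16) also fell, Ddit3 (-0.18) did not pass and Ppp1r15a (0.50) rose. The part of Atf4 in the Atf3 values was not tested.

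T cell genes that AP-1 is known to bind with NFAT mostly fell in both experiments. Of 16 tested with CPX 10 fell and 0 rose (median -1.93). Cd69 had 137 and 138 RPM with CPX, against 985 and 886 RPM with DMSO (log2 -2.76, limma, adjusted p = 0.00241), and the log2 fold changes were -4.99 for Il2 and -4.65 for Il13. With the Pcbp1 hairpin 12 of 17 fell and 2 rose (median -1.17), with Il21 at -1.81, Csf2 at -2.19 and Il4 at -2.73. Il2 had 182 and 226 RPM with CPX, against 10020 and 4183 RPM with DMSO. The CPX libraries were thus low in Il2 and Cd69 and high in Fosb, Fosl2, Jun and Fos.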

How the data were processed

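Per the submitters' processing notes, reads were handled with cutadapt, STAR, HTSeq and DESeq on mouse build mm9; no version, annotation or strand setting is stated there. The deposited table of libraries carries the name RPM, but its values are in other units. For the knockdown the deposited values are raw counts, since after division by 1 size factor per library they gave the authors' mean signal with a relative error of at most 4.93e-10 for abundant genes. For CPX they are treated as a score, rescaled by the authors and rounded to whole numbers; the reads behind them could not be recovered. The authors' tables hold, per the file headers, a mean signal of normalized counts, log2 fold changes with SE on the log2 scale, a Wald score, p-values and adjusted p-values from DESeq2.

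From a constant line onward the table's labels name the next gene. Of 14805 lines with a value of at least 10, 14455 matched 1 gene by both authors' means and 350 matched several and were left out. Values of Jun, Junb and Jund stood under the next labels, and those of the other 6 genes under their own. Genes with at least 1 RPM in 2 of 4 libraries were tested. The knockdown used edgeR 4.0.16 (quasi-likelihood, TMM); its SE is the log2 fold change over the root of F. CPX and the difference used limma 3.58.1 (trend) on log2(RPM + 0.5), without TMM. Alternatives included DESeq2 1.42.0, in R 4.3.3. P-values were adjusted over all genes tested, and each method was tested on simulated data, in which the tests of CPX and of the difference missed most changes of 1 on the log2 scale. Only a small part of the genes was changed there, which makes the adjustment of p-values stricter. In the data 44.7% (CPX) and 51.3% (difference) of genes were called, so that rate of misses cannot be carried over to them. Low counts limit precision for Batf3, Fosl1 and Fosb in the knockdown. In GENCODE M21, exons of Fosl1, Jun, Junb and Jund overlap a gene on the opposite strand (Ccdc85b, Junos, Prdx2 and Gm11175), so these counts are uncertain to that extent. Length and GC content were found for 97.6% of genes tested in the knockdown and 98.6% with CPX. The named genes are the 9 genes, Pcbp1, up to 3 genes per list with the smallest p in a comparison and the 2 genes most correlated with each of the 9 (mean of at least 5 RPM in each experiment); some genes that this rule names are not reported here. The genes, lists and tests were chosen with earlier results of these data known.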

Additional observations from a re-analysis of the deposited data

How the results depend on the processing

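With CPX, Fosb, Fosl2, Jun and Fos kept their direction in every alternative run and their call in each that had a test, over log2 ranges of 5.60 to 5.96, 2.56 to 2.90, 2.36 to 2.59 and 2.32 to 2.78. With the Pcbp1 hairpin, Fosl2, Atf3 and Jund kept theirs in every alternative with a test. The number of the 9 genes called up with the hairpin was 2, and 1 with DESeq2 or a filter of 5 RPM; leaving out 1 library gave 1 to 2 up and 2 to 4 down. A group left with 1 library is assumed to vary like the others. With CPX 5124 genes were called, and 2108 to 5809 with 1 library left out, the lowest without DMSO replicate 1 (2108) and DMSO replicate 2 (2354). For the difference, 3671 genes were positive and 1675 negative, and 2851 and 2444 with TMM scaling. With 1 library left out, 3908 to 6852 differences were called, and the negative ones numbered 1058 without Pcbp1 hairpin replicate 2, 1083 without scrambled replicate 1 and 1104 without scrambled replicate 2.

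Values near 0 changed sign: with 1 library left out, hairpin values ran from -0.73 to 0.016 for Junb and -1.63 to 0.29 for Batf3, CPX values from -0.44 to 0.46 for Fosl1, -0.38 to 0.20 for Junb and -0.69 to 0.10 for Jund, and differences from -0.54 to 0.24 for Junb, -0.55 to 0.25 for Jund and -0.057 to 0.84 for Fosl1. With limma on RPM the hairpin value of Fos was 0.024, with TMM the CPX value of Junb was 0.039, and relative to length and GC content the hairpin value of Jun was -0.13. The causes were not tested.

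The replicate numbers are shared between groups, but no label says that they mark a shared culture or animal. Replicate differences of the 2 groups correlated across genes at 0.289 in the knockdown and 0.101 in the CPX experiment. With the replicate number as a block, 7348 genes were called with the hairpin, 5651 with CPX and 5362 for the difference. Of the 9 genes, 2 rose and 3 fell with the hairpin (Junb added at -0.34, adjusted p = 0.0473), 6 passed upward with CPX (Batf3 added, adjusted p = 0.0223, though it entered the test only through its CPX libraries) and 5 differences were negative.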
